A study of Mus musculus with 10 samples.

Results

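Collecting duct principal cells were taken from single-cell libraries of mouse kidney cortex by a rule on transcripts. A barcode was kept with at least 500 genes detected and at most 50% of its unique molecular identifiers (UMIs, each standing for 1 captured transcript) from mitochondrial genes. A kept barcode was counted as a principal cell when it held at least 2 different genes of Aqp2, Hsd11b2, Fxyd4, Aqp3 and Scnn1b with at least 4 UMIs in sum, and no UMI of Slc12a1, Atp6v1g3, Ptprc or Pecam1, which mark thick ascending limb, intercalated, blood and endothelial cells. The rule found 2508 principal cells among 52797 kept barcodes. The 10 Drop-seq libraries, in which droplets pair 1 cell with 1 barcoded bead, came from the kidneys of mice aged 4 weeks. The labels name 1 control library from a normal kidney, 1 library each at 1, 2 and 4 days and 2 libraries each at 7, 11 and 14 days after injury. They do not state the kind of injury, the strain, the sex or the number of animals behind a library, so p-values below may measure technical spread only. The 2 libraries of a day are called replicates 1 and 2.

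Principal cells line the connecting tubule and collecting duct, where the final composition of urine is set. Vasopressin binds the receptor Avpr2 on their basal side and moves the water channel Aqp2 to the luminal membrane, while Aqp3 and Aqp4 let water out on the other side. Aldosterone, acting through the receptor Nr3c2 and the kinase Sgk1, raises sodium entry through the epithelial channel made of Scnn1a, Scnn1b and Scnn1g, and potassium leaves through Kcnj1. Hsd11b2 inactivates glucocorticoids so that Nr3c2 answers to aldosterone. Injured tubule cells are known to secrete lipocalin 2 (Lcn2), clusterin (Clu) and osteopontin (Spp1) and to raise keratins of simple epithelia.

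Libraries held between 7091848 and 31632205 UMIs in all, and the principal cells of a library held between 306670 and 1168389. A principal cell had a median of 1433 to 2574 UMIs and 894 to 1252 genes, depending on the library. Both day 11 tables listed barcodes from 300 genes upward, of which 5362 and 5424 fell below the gene minimum. The mitochondrial share of principal cell UMIs was 22.9% in the control library, 12.2% at day 1, 11.9% at day 2, 7.23% at day 4, 4.73% and 6.87% at day 7, 13.1% and 10.1% at day 11, and 17.9% and 18.6% at day 14. The unannotated transcript BC018473 had 720 CPM (counts per 1e+06 UMIs) in control principal cells, 424 and 281 at day 11 and at most 0.777 in the other 7 libraries, so the control and day 11 libraries stood apart from the rest in this respect. Of the comparisons tested below, only that of day 14 with day 7 does not cross this split, and in the others the days and the split cannot be told apart. Levels of single genes in principal cells are given below as CPM of the summed UMIs of a library's principal cells, scaled by trimmed mean of M-values (TMM).

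The label was checked on 19 principal cell markers that the rule did not use. Among them, 18 were higher in principal cells than in all other kept cells in 10 of 10 libraries, and Rap1gap in 7. Over the libraries the median ratio of unscaled CPM was 11.4 for Avpr2, 11.9 for Aqp4, 9.44 for Scnn1g, 9.20 for the potassium channel subunit Kcne1, 6.36 for Gata3, a transcription factor of the nephric duct, and 3.78 for Kcnj1. Rule gene UMIs were also found in macrophages, which do not make them. A UMI of Aqp2 was found in 2.17% to 12.9% of macrophages by library and one of Hsd11b2 in 0% to 25.1%. The positive side of the rule was passed by 0% to 2.35% of macrophages. Free RNA and doublets cannot be told apart here. At the edge of the rule, 0 to 41 principal cells per library held exactly 4 UMIs of at least 2 rule genes, and 3 to 72 barcodes per library fell just outside with 3 UMIs. The median sum of rule gene UMIs in principal cells ranged from 17 to 40.5 between libraries.

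The 163 control principal cells made up 2.66% of kept barcodes (exact 95% interval 2.27 to 3.09). The share was 6.53% at day 1, 6.51% at day 2 and 5.41% at day 4. It was 6.96% ± 0.123 (SD, n = 2) at day 7, 3.03% ± 0.677 at day 11 and 4.35% ± 1.06 at day 14. Thus the shares at days 1 to 7 all lay above those of the control and of days 11 and 14, where the 2 libraries of a day held 3.51% and 2.56%, and 3.60% and 5.09%. The order between days did not hold under every setting: with Aqp2 not used by the rule, day 1 was at 4.32% and day 4 at 4.46% against 4.75% in day 14 replicate 2, and with a sum of at least 6 UMIs day 4 was at 4.55% against 4.87% there. Among barcodes of 3 tubular classes set by such rules (principal, thick ascending limb and intercalated cells), principal cells formed 16.1% in the control library, 47.3% at day 1, 60.2% at day 2 and 52.2% at day 4. The same share was 53.4% ± 4.23 at day 7, 26.7% ± 4.09 at day 11 and 36.1% ± 4.35 at day 14. No test was run on shares. They depend on how many cells of other kinds each suspension held, and the 4 excluded genes removed 61.6% of control barcodes that passed the positive side but 28.6% to 48.2% elsewhere; the part of this in the shares was not tested.

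**Figure D1:**
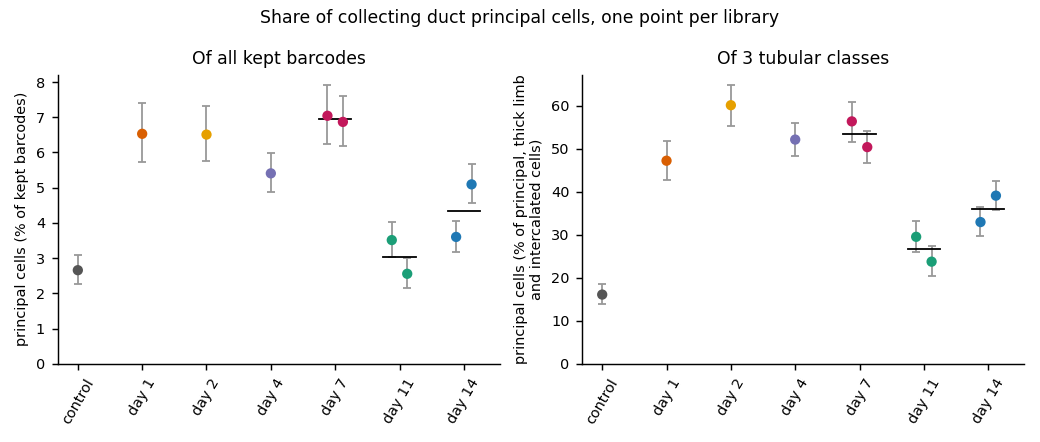
Principal cells as a percentage of all kept barcodes (left) and of principal, thick ascending limb and intercalated cells together (right) in each of 10 libraries, by day. Points are libraries with exact 95% intervals for counting error and black lines are means of 2 libraries; the control library lies lowest on the right at 16.1% and day 2 highest at 60.2%.

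The 5 comparisons with a replicated group were tested with edgeR (quasi-likelihood, p-values adjusted by Benjamini and Hochberg over 10380 genes). Between day 7 and control, 926 genes were called (8.92% of those tested), 380 higher (3.66%) and 546 lower (5.26%) at day 7. Between day 11 and day 7, 1668 were called (16.1%), 964 higher (9.29%) and 704 lower (6.78%) at day 11. Between day 14 and day 7, 2265 were called (21.8%), 1213 higher (11.7%) and 1052 lower (10.1%) at day 14. Between day 14 and day 11, 774 were called (7.46%), 332 higher (3.2%) and 442 lower (4.26%) at day 14, and between day 14 and control 295 (2.84%), 143 higher (1.38%) and 152 lower (1.46%). The lone control library is taken to vary as the days with 2 libraries do, and comparisons that share a group are not independent of each other. DESeq2 called 350, 706, 939, 354 and 57 genes in the same order. Without day 14 replicate 2, 147 genes were called between day 14 and control, and leaving out a day 7 library raised that count to 674 or 558. The day 11 counts against day 7 fell to 993 and 905 without 1 or the other day 11 library, and those of day 14 against day 11 to 408 and 301, or to 461 without day 14 replicate 2. Without that library 1441 were called between days 14 and 7. Removing members in doubt also moved calls: without cells with over 2% of proximal tubule UMIs, 609 genes were called between day 7 and control. Over the other settings run with all libraries, that count ranged from 186 to 1738.

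Genes of the proximal tubule and of blood cells were among the largest changes. RNA of the proximal tubule and of macrophages moved with the groups. A list of 12 proximal tubule genes summed to 9834 unscaled CPM in control principal cells, 707 and 1375 at day 7, 14638 and 12372 at day 11 and 17141 and 20728 at day 14. It reached 41299, 4023 and 5437, 50440 and 59590, and 63237 and 59098 in all other kept cells of those libraries. Of the list, 10 of 12 genes were called lower at day 7 than in control (5.26% of all genes were), and 12 of 12 higher at day 11 and at day 14 than at day 7 (9.29% and 11.7%). Among the 6 genes per direction with the largest called change, Acsm3, Slco1a6, Slco1a1 and Cyp2e1 were lower at day 7 than in control. Miox, Inmt and Akr1c21 were higher at day 11 than at day 7, and Pck1, Slc22a6 and Slc13a3 higher at day 14 than at day 7. A macrophage list, of which 7 of 8 genes are in the tables, summed to 1.56 CPM in control principal cells, 919 and 607 at day 7 and 7.15 to 41.8 at days 11 and 14, against 7364 and 7618 in all other kept cells at day 7. The 4 haemoglobin genes summed to 7.81 unscaled CPM in control principal cells, 796 and 28.8 at day 7, 3831 and 427 at day 11, and 149 and 68.8 at day 14. Called higher at day 11 than at day 7 were 4 of 4 (9.29% of all genes were). Lower at day 14 than at day 11 were 4 of 4 (4.26% of all genes). The sums of days 7 and 11 overlapped, and the 2 libraries of each of these days lay far apart. Lyz2, a lysozyme of macrophages, was absent from control principal cells and reached 542 and 378 scaled CPM at day 7. Of the genes called higher at day 7 than in control, 46.3% were at or below all other kept cells in both day 7 libraries. Of those called lower, 56.8% were so in the lone control library. The share over all genes tested was not computed, so neither figure sets called genes apart. The part of free RNA in these calls was not tested.

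The 5 genes of the rule were tested only in cells picked by the other 4. Aqp2 stood at 4640 CPM in control, 5093 at day 1, 2988 at day 2, 3532 at day 4, 1367 and 2253 at day 7, 8466 and 9833 at day 11, and 4873 and 4255 at day 14. The 2 day 7 libraries were the lowest of the 10 and the 2 day 11 libraries the highest, with no overlap. Aqp2 was lower at day 7 than in control by a log2 change of -1.35 ± 0.254 (SE; edgeR quasi-likelihood, adjusted p = 0.00205), and higher at day 11 than at day 7 by 2.33 ± 0.224 (adjusted p = 5.8e-07). The day 14 level differed from control by -0.02 (adjusted p = 0.981). It was lower than at day 11 by a log2 change of -1.003, a call that was lost when day 11 replicate 2 or either day 14 library was left out (-0.89 to -1.11).

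Aqp3, the basolateral water and glycerol channel, was at 2918 CPM in control, 531, 687 and 657 at days 1, 2 and 4, 459 and 670 at day 7, 3574 and 3407 at day 11, and 3002 and 1868 at day 14. All 5 libraries of days 1 to 7 lay below all of the others. Its fall from control to day 7 was -2.36 ± 0.278 on the log2 scale (edgeR adjusted p = 8.9e-05) and its rise from day 7 to day 14 was 2.10 (adjusted p = 3.2e-05). Fxyd4, a regulator of the sodium pump, was at 961 CPM in control, 819, 670 and 353 at days 1, 2 and 4, 292 and 469 at day 7, 2732 and 2970 at day 11, and 579 and 728 at day 14. It was highest at day 11 by a wide margin: the change from day 7 to day 11 was 2.89 (adjusted p = 7.0e-09) and from day 11 to day 14 -2.12 (adjusted p = 6.6e-06). The smaller rise of Fxyd4 from day 7 to day 14, 0.77, lost its call without day 7 replicate 1 (0.50) or day 14 replicate 2 (0.59).

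Hsd11b2 and the sodium channel subunit Scnn1b varied less. Hsd11b2 ranged from 4864 CPM at day 2 to 10311 in a day 14 library, with control at 8344 and day 7 at 7538 and 5857. Its change from control to day 7, -0.32, did not pass the edgeR test (adjusted p = 0.530), and its rise from day 7 to day 14, 0.62 (adjusted p = 0.0481), lost its call without day 7 replicate 2 (0.46) or either day 14 library (0.63 each). Scnn1b was at 413 CPM in control, 212 and 370 at day 7, and 638 and 582 at day 14; only its rise from day 7 to day 14 passed with all 10 libraries fitted (1.05, edgeR adjusted p = 0.00213). Its fall from control to day 7 passed only without day 7 replicate 2 (-0.98 in place of -0.49). All 5 rule genes were seen together in 41.1% of control principal cells, 12.9% at day 1, 10.2% and 23.2% at day 7, and 42.0% and 37.8% at day 14, a description that the rule itself bears on.

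The vasopressin receptor Avpr2 followed a similar course outside the rule. It was at 336 CPM in control, 198, 109 and 174 at days 1, 2 and 4, 98.7 and 145 at day 7, 712 and 611 at day 11, and 426 and 502 at day 14. The libraries of days 1 to 7 all lay below control, and those of days 11 and 14 all lay above it. Avpr2 fell from control to day 7 by -1.44 ± 0.269 on the log2 scale (edgeR adjusted p = 7.3e-04), rose from day 7 to day 11 by 2.42 ± 0.230 (adjusted p = 5.5e-08), and at day 14 differed from control by 0.47 (adjusted p = 0.383). Ptger1, a prostaglandin E2 receptor, was at 130 CPM in control, 31.5 and 46.6 at day 7, 222 and 190 at day 11, and 105 and 165 at day 14, with day 7 below and day 11 above the rest of these libraries. Its changes were -1.69 ± 0.349 from control to day 7 (edgeR adjusted p = 0.00208) and 2.36 ± 0.295 from day 7 to day 11 (adjusted p = 4.1e-06). Edn1, endothelin 1, which restrains salt and water uptake in the collecting duct, moved the other way. It stood at 5.42 CPM in control (3 UMIs), 120 at day 1, 30.1 at day 2, 97.7 at day 4, 182 and 190 at day 7, 17.1 and 6.68 at day 11, and 22.5 and 11.1 at day 14. Edn1 reached 149 and 138 unscaled CPM in all other kept cells at day 7, so its rise was not limited to principal cells. It fell from day 7 to day 11 by -3.87 ± 0.404 (edgeR adjusted p = 2.6e-07).

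Aqp4 was at 188 CPM in control, 114 and 175 at day 7, 434 and 391 at day 11, and 179 and 272 at day 14. The day 11 libraries were the highest of all 10, and only the change from day 7 to day 11 (1.49 ± 0.253, edgeR adjusted p = 1.8e-04) and the fall to day 14 (-0.87, adjusted p = 0.030) passed, the latter losing its call under several settings. Of 18 tested genes of the vasopressin and water list, 1 (Edn1) rose and 2 (Avpr2 and Ptger1) fell from control to day 7, where 3.66% of all genes rose and 5.26% fell, with a median log2 change of -0.37 against 0.04 over all genes; the median was 0.06 when libraries were scaled by totals alone, which moved the median of all genes to 0.47. By day 11, 5 had risen above day 7 (Avpr2, Ptger1, Aqp4, the endothelin receptor Ednrb and the kinase subunit Prkar1a) and Edn1 had fallen (9.29% and 6.78% of all genes). Between day 14 and control 0 of 18 were called by edgeR, as 295 of 10380 genes were.

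Among sodium and potassium transport genes, Kcnj1, the secretory potassium channel, was at 798 CPM in control, 338, 281 and 478 at days 1, 2 and 4, 325 and 381 at day 7, 705 and 531 at day 11, and 885 and 844 at day 14. Every library of days 1 to 7 lay below every other. Kcnj1 fell from control to day 7 by -1.17 ± 0.235 (edgeR adjusted p = 0.00154) and rose from day 7 to day 14 by 1.29 ± 0.198 (adjusted p = 2.9e-05). Kcnj10, a basolateral potassium channel subunit, was at 453 CPM in control, 183 and 131 at day 7, and 509 and 408 at day 14, with day 7 lower than both other groups (-1.55 ± 0.263 from control, edgeR adjusted p = 2.7e-04). The kinase Wnk1 was at 354 CPM in control, 130 and 114 at day 7, 97.6 and 147 at day 11, and 457 and 341 at day 14, so that days 7 and 11 lay below the other 2 groups. Its change from control to day 7 (-1.54) turned to 0.16 with at most 25% mitochondrial UMIs and to 1.47 in cells without a Calb1 UMI. Rhbg, an ammonium transporter named here after its values were seen, was at 305 CPM in control, 38.6 and 90.1 at day 7, and 376 and 336 at day 14.

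The channel subunits Scnn1g and Scnn1a rose from day 7 to day 14, by 0.66 (edgeR adjusted p = 0.0229) and 0.91 (adjusted p = 0.0078), calls lost under several settings. Scnn1g was at 466 CPM in control, 283 and 239 at day 7, and 437 and 383 at day 14, and its fall to day 7 (-0.84 ± 0.249, edgeR adjusted p = 0.0335) lost its call under several settings. Scnn1a was at 229 CPM in control, 110 and 144 at day 7, and 258 and 223 at day 14, and its change to day 7 did not pass (-0.84, edgeR adjusted p = 0.0844). The aldosterone receptor Nr3c2 was at 57.8 CPM in control, 34.3 and 46.6 at day 7, and 47.5 and 53.7 at day 14 (-0.48 from control to day 7, edgeR adjusted p = 0.511).

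Sgk1 was at 18.1 CPM in control, 281 at day 1, 61.2 at day 2, 107 at day 4, 37.2 and 97.9 at day 7, 65.9 and 120 at day 11, and 186 and 160 at day 14. The control library was the lowest of the 10. Between day 14 and control Sgk1 was higher by 3.25 ± 0.547 (edgeR adjusted p = 0.00165), the only one of 21 tested sodium and potassium genes called there, and 1.15 and not called in cells without a Calb1 UMI. Atp1b1, the beta subunit of the sodium pump, was at 6259 CPM in control, 5391 and 4283 at day 7, and 5985 and 4876 at day 14, and its change to day 7 did not pass (-0.37, edgeR adjusted p = 0.362). Of the 21, 4 rose and 5 fell from control to day 7 (3.66% and 5.26% of all genes, list median -0.47). With library totals alone 4 rose and 3 fell, and the median of all genes moved from 0.04 to 0.47. Between days 7 and 14, 11 rose and 3 fell (11.7% and 10.1% of all genes, median 0.66 against -0.06 over all genes). In cells without a Calb1 UMI 4 rose and 2 fell, counts that cannot be set against those shares of all genes.

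**Figure D2:**
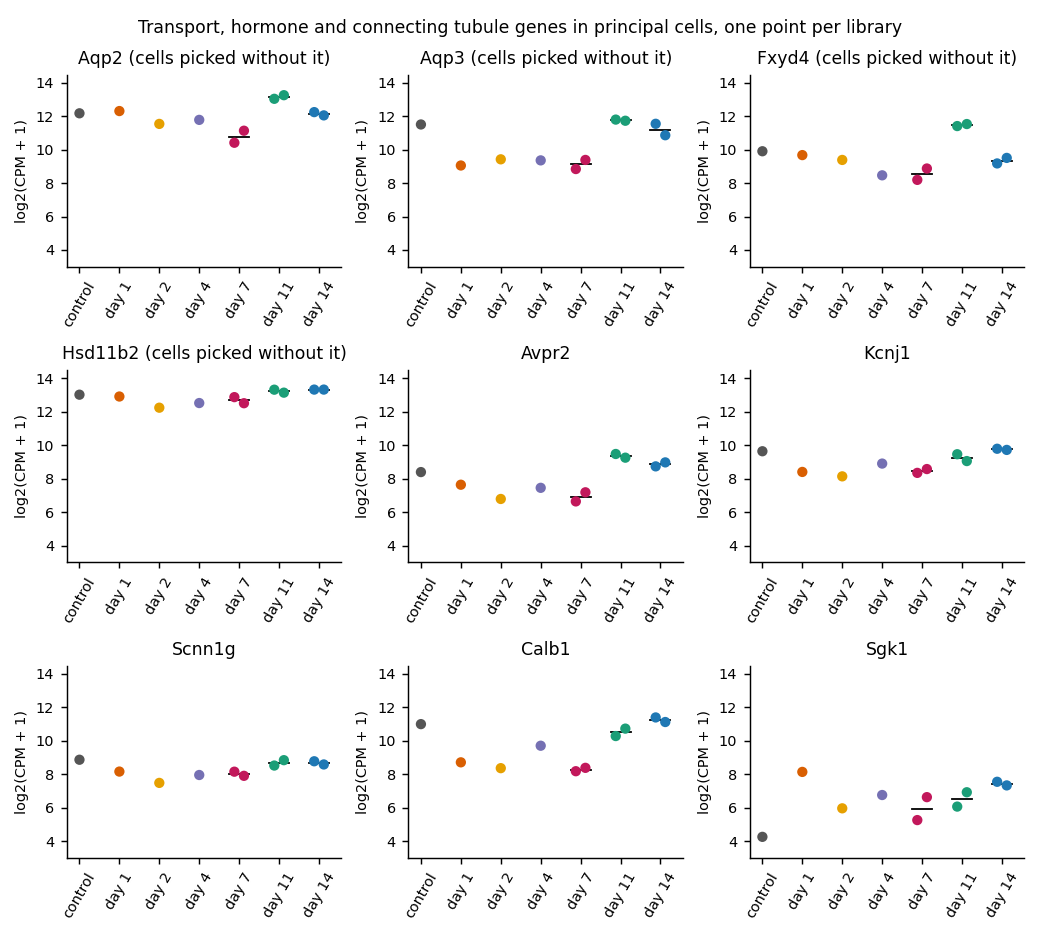
Levels of 4 rule genes, each in cells picked without it, and of Avpr2, Kcnj1, Scnn1g, Calb1 and Sgk1 in principal cells as log2(CPM + 1), TMM-scaled, by day. Points are libraries and black lines means of 2 libraries on the log2 scale; Avpr2 ran from 98.7 and 145 CPM at day 7 to 712 and 611 at day 11, and Sgk1 was lowest in control at 18.1.

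Part of the cells chosen by the rule carried the connecting tubule genes Calb1 (calbindin) and S100g (calbindin-D9k), which bind calcium. A Calb1 UMI was found in 68.7% of control principal cells, 39.9% at day 1, 50.4% at day 2, 50.7% at day 4, 37.3% and 43.2% at day 7, 44.2% and 53.3% at day 11, and 79.2% and 77.8% at day 14. In proximal tubule cells, which lack the protein, the share was 2.15% to 10.3%. With each cell thinned to 1000 UMIs, the principal cell share was 51.0% in control, 19.9% and 27.5% at day 7, and 68.3% and 63.1% at day 14, with day 1 at 28.1% and day 2 at 26.8%. Calb1 itself was at 2044 CPM in control, 418, 328 and 834 at days 1, 2 and 4, 289 and 333 at day 7, 1246 and 1696 at day 11, and 2697 and 2231 at day 14. It fell by -2.71 ± 0.234 from control to day 7 (edgeR adjusted p = 1.8e-08) and rose by 2.98 ± 0.211 from day 7 to day 14 (adjusted p = 2.2e-10).

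In the summed RNA of these cells, fewer connecting tubule cells and less Calb1 RNA per cell cannot be told apart. S100g was at 21100 CPM in control, 2374 and 4487 at day 7, and 28299 and 21572 at day 14, and its fall to day 7 was -2.62 ± 0.269 (edgeR adjusted p = 2.6e-07). In cells without a Calb1 UMI the same comparison gave 0.49, the other direction. Of 7 tested connecting tubule genes, 4 fell and 1 rose from control to day 7 (5.26% and 3.66% of all genes; median -1.94): Calb1, S100g, the sodium-calcium exchanger Slc8a1 and the kallikrein Klk1 fell, and the calcium channel Trpv5 rose by 2.75 ± 0.515 (adjusted p = 7.7e-04). Between days 7 and 14, 4 rose and 3 fell (11.7% and 10.1% of all genes). Between day 14 and control edgeR called 0 of the 7 and 2.84% of all genes. The rule did not exclude distal convoluted tubule cells. Of 4 tested genes of that segment, Slc12a3 rose and Pvalb fell from control to day 7 (3.66% and 5.26% of all genes). Slc12a3 was lower at day 11 than at day 7, and higher at day 14 than in control.

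Because of the connecting tubule genes, the transport genes were compared again in cells without a Calb1 UMI, a choice made after the data were seen. Calb1 itself fell, and these cells were 51 of 163 in control but 160 of 255 and 201 of 354 at day 7. A cell without the UMI held a mean of 2212 UMIs against 4711 with it in control, and 4276 against 3483 in day 14 replicate 1. Calls kept or lost there cannot be told apart from this selection. Avpr2, Kcnj1 and Ptger1 kept their calls from control to day 7, and Avpr2 and Ptger1 from day 7 to day 14. In unscaled CPM the control cells without Calb1 held more Aqp4 (479 against 94.8) than those with it, and the day 14 cells without it held less Sgk1 (54.0 and 27.0 against 199 and 176) and less Scnn1g (108 and 181 against 473 and 385). From day 7 to day 14, Kcnj1 was no longer called in these cells (0.52), nor were Kcnj10 (0.53), Rhbg (0.64), Scnn1a (-0.08), Scnn1g (-0.47), Sgk1 (-0.25), Kcne1 (-0.27) or Wnk1 (-0.19). These cells numbered 52 and 70 at day 14.

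Of 21 tested transcription factors of the collecting duct, 1 rose from control to day 7 (Elf3), as did 3.66% of all genes. Another 3 fell (Tfcp2l1, Gata2 and Sim1), as did 5.26% of all genes, with a list median of -0.26. When libraries were scaled by totals alone 5 rose and 0 fell, but the median of all genes then moved from 0.04 to 0.47. Tfcp2l1, which maintains the distal and collecting duct program, was at 785 CPM in control, 422, 301 and 367 at days 1, 2 and 4, 379 and 361 at day 7, 361 and 341 at day 11, and 508 and 558 at day 14. Control was the highest library and the day 14 pair came next. Tfcp2l1 fell to day 7 by -1.09 ± 0.226 (edgeR adjusted p = 0.00225), a call lost when libraries were scaled by totals alone (-0.65). Gata2, a regulator of Aqp2, was at 469 CPM in control, 299 and 234 at day 7, and 576 and 524 at day 11, and rose between days 7 and 11 by 1.05 (adjusted p = 8.8e-04). Gata3 was at 365 CPM in control, 218 and 271 at day 7 and 214 and 250.1 at day 14, and passed in none of the tested comparisons with control (-0.57 at day 7, edgeR adjusted p = 0.188). Hoxb7, a marker of the ureteric lineage, was at 164 CPM in control, 166 and 167 at day 7, and 144 and 109 at day 14, a difference of 0.02 between day 7 and control (adjusted p = 0.982).

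Genes of tubule injury rose in principal cells. Lcn2 was at 25.3 CPM in control, 3212 at day 1, 1308 at day 2, 1431 at day 4, 2457 and 1988 at day 7, 227 and 147 at day 11, and 56.2 and 63.8 at day 14. All 5 libraries of days 1 to 7 lay above all others, and control was the lowest. Lcn2 rose from control to day 7 by 6.45 ± 0.391 (edgeR adjusted p = 1.0e-10), fell to day 11 by -3.55 ± 0.233 and to day 14 by -5.20 ± 0.248 against day 7, and was not called between day 14 and control (1.25, adjusted p = 0.108). Unscaled levels in all other kept cells were 2.53 CPM in control and 870 and 836 at day 7. In cells with and without a Calb1 UMI, Lcn2 was at 13.3 and 62.0 unscaled CPM in control, 2720 and 3039 in day 7 replicate 1, and 2140 and 2510 in replicate 2.

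Clu, a secreted chaperone, was at 1713 CPM in control, 21409, 14128 and 11031 at days 1, 2 and 4, 18074 and 11868 at day 7, 1668 and 2103 at day 11, and 960 and 1025 at day 14. Days 1 to 7 again lay above the other groups without overlap, with changes of 3.13 ± 0.294 from control to day 7 (edgeR adjusted p = 6.6e-08) and -3.91 ± 0.228 from day 7 to day 14 (adjusted p = 1.6e-11). In the control library, Clu was found mainly in cells with a Calb1 UMI (1768 against 142 unscaled CPM). Spp1 was at 715 CPM in control, 10515 at day 1, 4396 and 6243 at day 7, 1032 and 965 at day 11, and 1927 and 1392 at day 14. The day 14 libraries lay above control, and the difference, 1.21 ± 0.268 (edgeR adjusted p = 0.0155), lost its call without day 14 replicate 1 (0.96). Sox4, a developmental transcription factor, was at 166 CPM in control, 472 and 444 at day 7, 110 and 100.2 at day 11, and 42.5 and 63.8 at day 14. It rose to day 7 (1.46 ± 0.291, edgeR adjusted p = 0.00142) and was lower at day 14 than in control (-1.63 ± 0.301, adjusted p = 0.0037).

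Some injury genes had 0 or 1 UMI in control principal cells. Sprr2f, a small proline-rich protein, had 0 UMIs in control principal cells, 4491 CPM at day 1, 734 at day 2, 298 at day 4, 637 and 319 at day 7, and 0 at days 11 and 14. Havcr1, the kidney injury molecule of proximal tubules, had 0 UMIs in control, 318 CPM at day 1, 468 at day 4, 71.6 and 52.1 at day 7, and at most 3.75 later, but all other kept cells held far more of it at day 7 (801 and 402 unscaled CPM). S100a6, a calcium-binding protein, was at 1.81 CPM in control (1 UMI), 607, 989 and 758 at days 1, 2 and 4, 605 and 416 at day 7, 56.1 and 50.1 at day 11, and 2.50 and 3.04 at day 14. Of 35 tested injury genes, 22 rose (3.66% of all genes did) and 0 fell from control to day 7 (median 3.06), 16 by DESeq2. Among the 22, C3, Cp, Ccl2 and Vcam1 were at 30.1 to 64.4 CPM at day 7 in principal cells and at 257 to 574 unscaled CPM in all other kept cells, and the part of those cells' RNA in their calls was not tested. Between days 7 and 14, 1 rose (Lgals3; 11.7% of all genes did) and 28 fell (10.1%; median -2.84). At day 14 against control 1 was higher (Spp1) and 1 lower (Sox4), with a median of 0.08, where 1.38% and 1.46% of all genes were.

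Of 16 tested keratin and junction genes, 8 rose (3.66% of all genes did) and 0 fell from control to day 7 (median 0.77). Krt8 was at 264 CPM in control, 2079, 1149 and 717 at days 1, 2 and 4, 1540 and 841 at day 7, 354 and 427 at day 11, and 176 and 161 at day 14. Its partner Krt18 was at 244 CPM in control, 868, 578 and 565 at days 1, 2 and 4, 1209 and 826 at day 7, 485 and 564 at day 11, and 299.7 and 214 at day 14. Days 1 to 7 lay above all other libraries for Krt8, while for Krt18 day 4 and a day 11 library were nearly equal. Krt8 rose to day 7 by 2.17 ± 0.317 (edgeR adjusted p = 4.1e-05) and Krt18 by 2.06 ± 0.298 (adjusted p = 3.6e-05). Krt19 was at 5.42 CPM in control (3 UMIs), 199 and 295 at day 7, 100.01 and 63.4 at day 11, and 4.99 and 6.08 at day 14, so day 14 was back at the control level while day 11 was not. The claudin Cldn4, a chloride-selective junction protein of the collecting duct, was at 119 CPM in control, 469, 452 and 179 at days 1, 2 and 4, 308 and 364 at day 7, 239 and 461 at day 11, and 87.4 and 66.8 at day 14. It did not change between days 7 and 11 past the test (0.04, edgeR adjusted p = 0.95) and fell from day 11 to day 14 by -2.17 ± 0.279 (adjusted p = 4e-05). Of the 16, 1 rose and 9 fell from day 7 to day 11 (6.78% of all genes fell), 0 rose and 13 fell from day 7 to day 14 (10.1%), and 1 (Dsp, desmoplakin) was lower at day 14 than in control (1.46%).

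**Figure D3:**
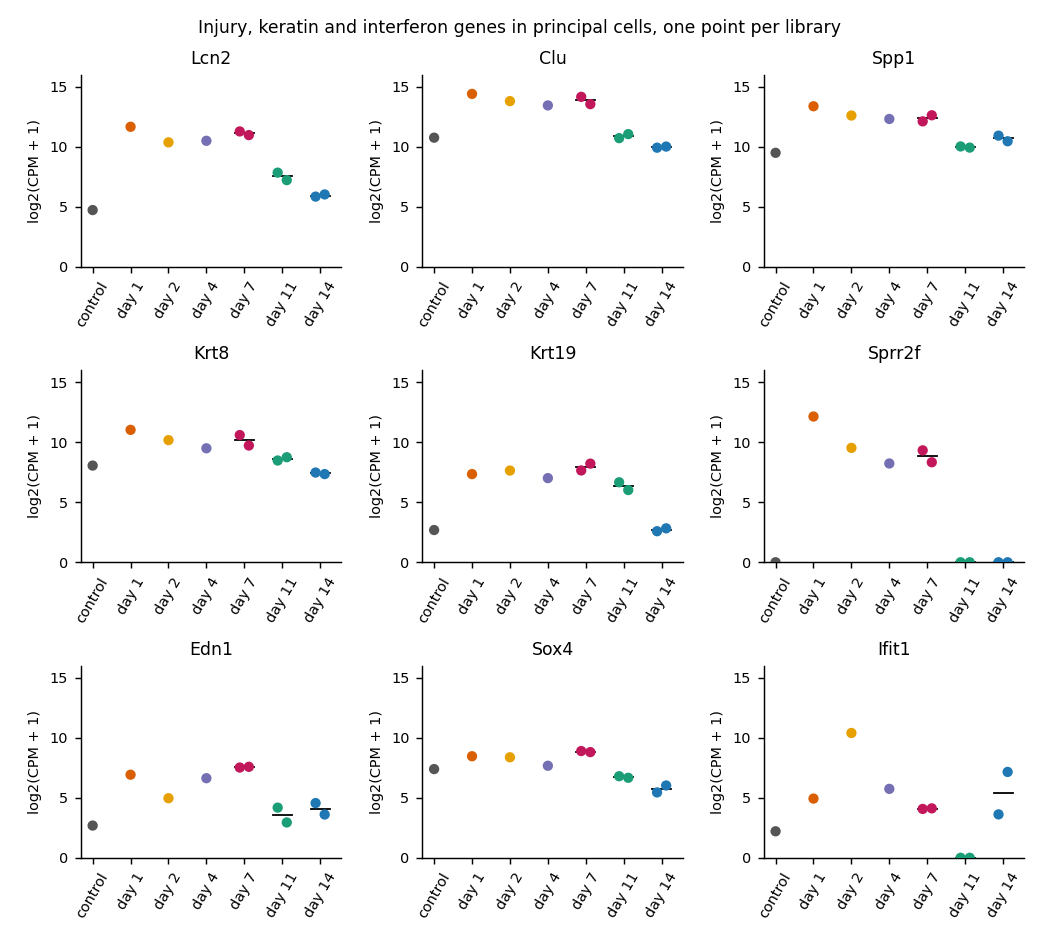
Levels of Lcn2, Clu, Spp1, Krt8, Krt19, Sprr2f, Edn1, Sox4 and Ifit1 in principal cells as log2(CPM + 1), TMM-scaled, in each library by day. Points are libraries and black lines means of 2 libraries on the log2 scale; Lcn2, Clu and Krt8 at days 1 to 7 lie above every library of the control and of days 11 and 14, as with Lcn2 at 2457 and 1988 CPM at day 7 against 25.3 in control.

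Levels of interferon and antigen genes also moved between days. Isg15, a ubiquitin-like protein induced by interferon, was at 9.03 CPM in control, 35.3 at day 1, 1409 at day 2, 98.4 at day 4, 58.7 and 23.3 at day 7, 9.76 and 10.02 at day 11, and 21.2 and 135 at day 14. Ifit1, an antiviral RNA-binding protein, was at 3.61 CPM in control, 1341 at day 2, 15.7 and 16.3 at day 7, 0 at day 11, and 11.2 and 141 at day 14. The day 2 library was far above all others in both genes, and day 14 replicate 2 came next. B2m, the light chain of class I antigen complexes, was at 291 CPM in control, 968, 1836 and 2578 at days 1, 2 and 4, 2438 and 2111 at day 7, 371 and 501 at day 11, and 1367 and 898 at day 14. B2m stayed above control in both day 14 libraries, a call that no setting ended (1.96 ± 0.292, edgeR adjusted p = 4.7e-04). All other kept cells moved the same way, from 373 unscaled CPM of B2m in control to a mean of 1199 at day 14. The class II gene H2-Ab1 was at 1.81 CPM in control (1 UMI), 149 and 126 at day 7, and 31.2 and 8.10 at day 14. Like the macrophage sums given above, H2-Ab1 was higher at day 7 than in control and at day 14.

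Of 26 tested interferon and antigen genes, 14 rose (3.66% of all genes did) and 0 fell from control to day 7 (median 2.26), 9 by the lowest count over the settings run. Those that rose most, Cd74, Ubd, Gbp2 and H2-Ab1, had 0 or 1 UMI in control principal cells. Their day 7 means were 31.0 to 158 CPM in principal cells and 123 to 1728 unscaled CPM in all other kept cells. The part of those cells' RNA in their calls was not tested. From day 7 to day 11, 1 rose (Irf1) and 15 fell (6.78% of all genes did). At day 14 against control 6 were higher, as were 1.38% of all genes (Rtp4, Ifit1, Ifi27, B2m, Ifitm3 and H2-K1), and 3 were called without day 14 replicate 2. In that setting Ifi27 gave 1.05 in place of 2.67, Rtp4 2.68 in place of 5.09 and Ifit1 1.59 in place of 4.38.

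Immediate early genes answer within minutes to stimuli and to tissue dissociation. Of 18 tested, 9 rose and 4 fell from day 7 to day 11 (9.29% and 6.78% of all genes), with a median of 0.76. Those that fell were Klf4, Klf2, Jund and Klf6. Fos was at 1838 CPM in control, 862, 742 and 614 at days 1, 2 and 4, 902 and 1086 at day 7, 2139 and 2528 at day 11, and 1316 and 1217 at day 14. Nr4a1, an orphan nuclear receptor, was at 41.5 CPM in control, 7.16 and 12.4 at day 7, 156 and 137 at day 11, and 47.5 and 39.5 at day 14. Zfp36, which destabilises cytokine transcripts, was at 429.7 CPM in control, 188 and 241 at day 7, 778 and 1002 at day 11, and 287 and 291 at day 14. In all of these the day 11 libraries were the highest of the 10. From day 7 to day 11 Nr4a1 rose by 3.80 ± 0.343 (edgeR adjusted p = 2.5e-08), Zfp36 by 2.04 ± 0.214 and Fos by 1.23 ± 0.189, whereas Jun did not pass (0.29). From day 11 to day 14, 0 of the 18 rose and 10 fell (4.26% of all genes did; median -1.24). From control to day 7, 2 rose (Klf4 and Klf2) and 5 fell (3.66% and 5.26% of all genes), with Fos at -0.89 losing its call under several settings. The part of tissue handling in these levels was not tested.

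Of 20 tested proliferation genes, 5 were lower at day 14 than in control (1.46% of all genes were) and 15 were not called. Mki67, a protein of dividing cells, was at 103 CPM in control, 143 at day 1, 23.1 at day 2, 38.3 at day 4, 103 and 52.8 at day 7, 7.32 and 3.34 at day 11, and 2.50 and 13.2 at day 14. Control and day 7 overlapped and all libraries of days 11 and 14 lay below them. Mki67 did not change between day 7 and control past the test (-0.45, edgeR adjusted p = 0.567), and was lower at day 14 than in control by -3.61 ± 0.512 (adjusted p = 3.9e-04), a difference that took the other sign in cells without a Calb1 UMI (4.17). Of the 20, 1 rose (Tubb5, a tubulin) and 1 fell (Ccnd1, a G1 cyclin) from control to day 7 (3.66% and 5.26% of all genes), and 10 fell and 1 rose from day 7 to day 11 (6.78% and 9.29% of all genes). Ccnd1 was at 863 CPM in control, 210.4 and 239 at day 7, and 830.3 and 765 at day 14, the reverse of Tubb5 at 52.4, 252 and 225, and 28.7 and 45.6. Of 15 tested matrix and fibrosis genes 3 rose from control to day 7 (3.66% of all genes did), namely Edn1, the growth factor Pdgfa (7.22 CPM in control, 53.0 and 56.0 at day 7) and the integrin Itgav (54.2, then 163 and 141), and 11 fell from day 7 to day 14 (10.1% of all genes did).

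Genes of oxidative phosphorylation, encoded in the nucleus, rose from day 7 on. Atp5b, the catalytic beta subunit of ATP synthase, was at 1184 CPM in control, 899, 1002 and 1398 at days 1, 2 and 4, 747 and 953 at day 7, 1590 and 1733 at day 11, and 2329 and 2353 at day 14. Uqcrfs1, the Rieske protein of complex III, was at 408 CPM in control, 212 and 342 at day 7, 478 and 417 at day 11, and 864 and 919 at day 14. In both genes day 7 lay below control and day 14 above all other libraries, with a change from day 7 to day 14 of 1.46 ± 0.188 for Atp5b (edgeR adjusted p = 2.5e-06) and 1.67 ± 0.216 for Uqcrfs1 (adjusted p = 2.6e-06). Of 40 tested genes, 40 rose and 0 fell from day 7 to day 14 (11.7% of all genes rose; median 1.13 against -0.06 over all genes), and 33 rose both with library totals alone and in cells without a Calb1 UMI. From day 7 to day 11, 34 rose (9.29% of all genes did; median 0.85). From control to day 7, 0 rose and 11 fell (5.26% of all genes did, list median -0.59). With library totals alone 1 fell, where the median of all genes moved from 0.04 to 0.47. In cells without a Calb1 UMI 0 fell, but there only 186 of 7152 genes were called in all, so that count says little. The proximal tubule sums, the mitochondrial share and Calb1 moved with the same groups, and their part in these changes was not tested.

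Glycolysis genes also rose after day 7: of 16 tested, 1 rose and 5 fell from control to day 7 (3.66% and 5.26% of all genes; median -0.61). Against day 7, at both day 11 and day 14, 11 rose (9.29% and 11.7% of all genes) and 1 fell (6.78% and 10.1%). Gapdh, a central glycolytic enzyme, was at 116 CPM in control, 67.3 and 96.4 at day 7, 249 and 324 at day 11, and 149 and 183 at day 14. Its level was thus highest at day 11, 1.77 ± 0.259 above day 7 on the log2 scale (edgeR adjusted p = 3.2e-05). Ces1d, a carboxylesterase named after its values were seen, was at 163 CPM in control, 22.9 and 32.6 at day 7, 764 and 825 at day 11, and 111 and 172 at day 14, so that both day 11 libraries were the highest of the 10.

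**Figure D4:**
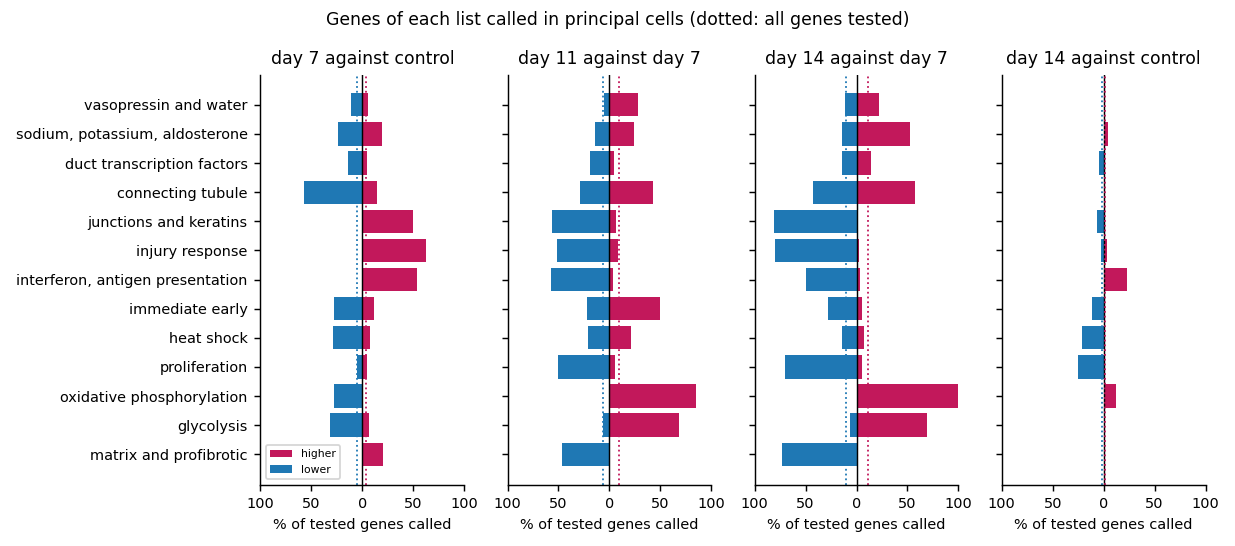
Percentage of the tested genes of functional lists called higher (pink) or lower (blue) in 4 comparisons of principal cells. Dotted lines mark the percentage of all tested genes called. Lists of osmotic response and ureteric development genes are not shown. From day 7 to day 14, 40 of 40 oxidative phosphorylation genes lie on the higher side and 28 of 35 injury genes on the lower side.

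Days 1, 2 and 4 had 1 library each, so their levels are set beside the control with no test, and intervals cover counting error only. Of 5225 genes with at least 30 UMIs over day 1 and control, 113 (2.16%) were at least 4-fold higher and 93 (1.78%) at least 4-fold lower at day 1. At day 2 these were 273 (4.13%) and 74 (1.12%) of 6606 genes, and at day 4, 261 (3.65%) and 47 (0.657%) of 7151. Injury genes passed this fold upward in 11 of 21 at day 1, 15 of 25 at day 2 and 18 of 30 at day 4, and in 0 downward. Interferon and antigen genes passed it in 2 of 9 at day 1, 19 of 23 at day 2 and 20 of 25 at day 4, with median ratios of 2.58, 15.6 and 8.77. A gene with few control UMIs entered these counts only by being high on that day. The upward counts and median ratios of both lists are therefore in part fixed by this filter. None of 40 oxidative phosphorylation genes passed it in either direction on any of the 3 days, with median ratios of 0.696, 0.804 and 0.912.

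At day 1 the ratio to control was 127 for Lcn2 (95% interval 75.5 to 233), 15.6 for Sgk1 (8.22 to 33.1), 14.7 for Spp1 (13.3 to 16.3) and 12.5 for Clu (11.7 to 13.4). Sprr2f, with 2287 UMIs at day 1 and 0 in control, was at least 829-fold higher, taking 3 UMIs as the floor of a library, and Sprr2g at least 166-fold higher. Elf5, a transcription factor of principal cells, stood 9.14 times as high (3.62 to 29.6). On the lower side, Calb1 was at 0.205 of control (0.176 to 0.237), Kcnj1 at 0.423 (0.353 to 0.506) and Avpr2 at 0.591 (0.459 to 0.757), while Aqp4 was at 1.35 (1.03 to 1.76). BC018473 was at least 122-fold lower at day 1, 239-fold at day 2 and 307-fold at day 4, as in the other libraries named above. The proximal tubule genes Acsm3, Slco1a1 and Inmt were the next lowest at day 1.

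At day 2 the 3 largest ratios were those of Rsad2, an antiviral enzyme induced by interferon, with 1326 UMIs against 1 in control (ratio 737, interval from 132 upward), S100a6 with 985 against 1 (ratio 548), and the interferon-induced Ifit3 with 847 against 1 (ratio 471). Rsad2 reached 1798 CPM in thick limb cells of that library, against 1331 in principal cells, so its rise was not limited to principal cells. Avpr2 was at 0.326 of control (0.255 to 0.415), Scnn1g at 0.381 (0.313 to 0.464) and Mki67 at 0.224 (0.132 to 0.370), all at their lowest of the 3 days. At day 4, Havcr1 had 599 UMIs against 0 and was at least 86.4-fold higher, and Lcn2 was 56.6 times its control level (33.7 to 104). Calb1 was then at 0.408 of control and Kcnj1 at 0.599, nearer to control than at days 1 and 2.

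To see where principal cells differed from another tubule cell under the same injury, their changes were compared with those of 3343 thick ascending limb cells of the same libraries, with library as a block. From control to day 7, 428 of 11640 genes differed in their change (3.68%), 220 with the higher (1.89%) and 208 with the lower value (1.79%) in principal cells. Between days 7 and 14, 350 differed (3.01%), 172 with the higher (1.48%) and 178 with the lower value (1.53%). Thick ascending limb cells reabsorb salt without water and start with little keratin and claudin 4. Their Cldn4 was at 1.88 CPM in control and 41.7 and 78.4 at day 7, against 119 and then 308 and 364 in principal cells. The change was smaller in principal cells by -3.49 ± 0.519 on the log2 scale (edgeR adjusted p = 2.9e-06). Krt18 was at 5.63 CPM in control thick limb cells and 108 and 92.6 at day 7, a larger change than in principal cells (difference -2.11 ± 0.365, edgeR adjusted p = 5.6e-05). Clu went from 114 CPM to 3989 and 3211 there, a difference of -1.85 ± 0.178 (adjusted p = 2.5e-11), though its level, scaled within each class, was higher in principal cells in each library. All cells other than principal cells held means of 134 unscaled CPM of Cldn4 and 315 of Krt18 at day 7. The part of free RNA in the thick limb changes was not tested.

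The changes of Lcn2 (-1.35, edgeR adjusted p = 0.247), Spp1 (-0.21, adjusted p = 0.69) and Kcnj1 (-0.15, adjusted p = 0.845) were not shown to differ between the classes. Fos went from 475 CPM to 736 and 1044 in thick limb cells while it fell in principal cells, a difference of -1.77 ± 0.184 (adjusted p = 2.5e-10). Tfcp2l1 was at 299 CPM in control thick limb cells and 275 and 265 at day 7, and its difference of -0.92 ± 0.208 (adjusted p = 0.00297) lost its call without day 7 replicate 2.

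Ptges, the enzyme that makes prostaglandin E2, held between 106 and 314 CPM in principal cells of all 10 libraries but went from 2.41 CPM to 20.03 and 33.2 in thick limb cells (difference -3.65 ± 0.5003, edgeR adjusted p = 4.7e-07). Rasd1, a small G protein, was likewise at 121 CPM in control principal cells and 132 and 209 at day 7, against 2.41 and then 73.4 and 83.3 in thick limb cells. By lists, 27 of 40 oxidative phosphorylation genes had the higher change in principal cells from control to day 7 and 0 the lower, against 1.89% and 1.79% of all genes. In principal cells by themselves 0 of these 40 were called higher and 11 lower at day 7, so the higher change is not a called rise. Among immediate early genes 12 of 18 had the lower change in principal cells, as had 7 of 36 injury genes and 6 of 16 keratin and junction genes (1 the higher). For the vasopressin and water list 0 of 19 differed by edgeR. Between days 7 and 14 the signs were the reverse for oxidative phosphorylation (0 of 40 higher, 11 lower), immediate early (5 of 18 and 0) and injury genes (4 of 36 and 0), against 1.48% and 1.53% of all genes. Without either day 7 library 262 or 248 genes differed from control to day 7, and without either day 14 library 119 or 124 differed from day 7 to day 14.

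**Figure D5:**
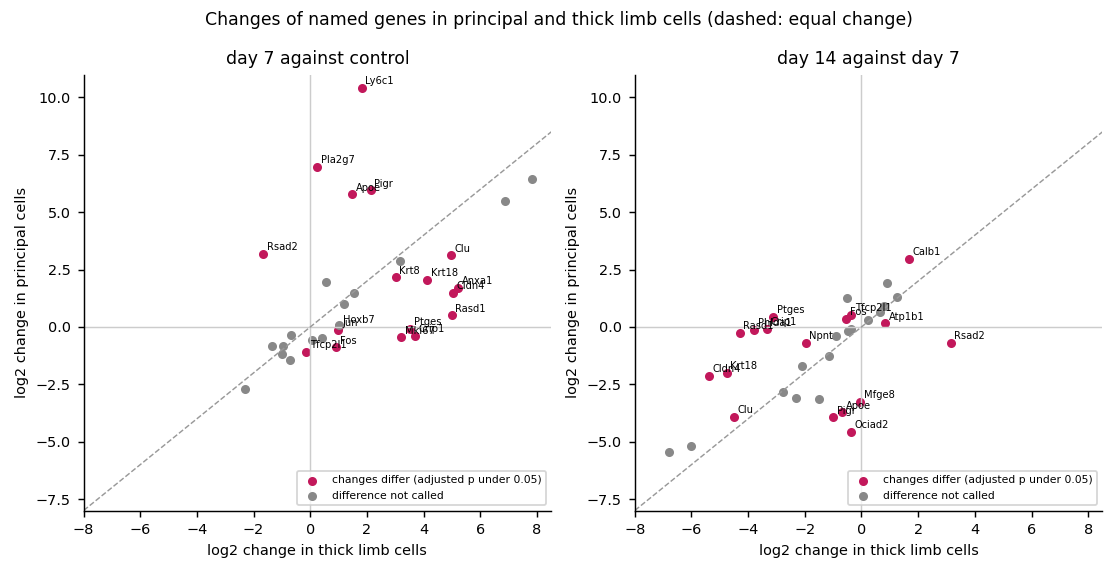
Log2 change of the named genes in thick ascending limb cells (horizontal axis) and principal cells (vertical axis), from control to day 7 and from day 7 to day 14, with the diagonal of equal change; pink points are genes whose difference was called. The axes come from a separate fit of each class. Cldn4, Krt18 and Clu lie below the diagonal from control to day 7 and Rsad2 above it. Their differences in the model with library as a block were -3.49, -2.11, -1.85 and 4.54. The change of Rsad2 was called in neither class by itself. Its levels were low: 1.81 CPM in control principal cells and 34.3 and 6.99 at day 7. In thick limb cells they were 5.36 CPM, then 1.67 and 1.63.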

How the data were processed

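Drop-seq count tables of genes by cell barcodes from 10 libraries of mouse kidney were used as the authors deposited them; the counts are whole numbers, read here as UMIs and not normalized. Per the submitters' processing notes, Bowtie2 2.2.7 and the mm10 build were used; counting settings are not given in the sources used here. Kept barcodes had 500 genes or more, and mitochondrial UMIs of 50% or less. The members and gene lists were chosen with earlier results of these data known. Thick ascending limb and intercalated cells were picked by rules of the same form. Scrublet called at most 0.111% of kept barcodes doublets and was not relied on; removing the top 5% of scores was an alternative. Libraries shared at most 11 barcodes in any pair.

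UMIs of principal cells were summed per library and fitted with edgeR 4.0.16 (R 4.3.3; filterByExpr, TMM, quasi-likelihood test, 1 factor level per day, Benjamini-Hochberg adjustment, threshold 0.05). The residual degrees of freedom were 3. A standard error is the absolute log2 change divided by the square root of F, which restates the test. DESeq2 1.42.0 was an alternative. Differences from thick limb cells came from 1 edgeR model with library as a block. Intervals are exact (Clopper-Pearson for shares, Poisson for sums), at 95%, and cover counting error only. Python 3.11.15, numpy 2.4.6, pandas 2.3.3, scipy 1.17.1, scanpy 1.11.5 and matplotlib 3.10.9 were used.

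Named genes were the rule genes and a list of followed genes; in each direction the 6 called genes that changed most, where the mean log2 CPM was 6 or more and groups did not overlap; up to 4 called genes per list, or its 2 highest where none was called; the 4 largest ratios per direction at days 1, 2 and 4 among genes with at least 30 UMIs; and the 5 largest differences per direction between classes. Results for 1 gene are not reported here. Genes at least 2-fold above all other kept cells were added after values were seen. Replicate libraries differed by more than sampling noise (chi-square per degree of freedom 3.86, 2.66 and 2.32 at days 7, 11 and 14). On simulated counts with 9621 genes, edgeR recovered 89% of 4-fold and 22% of 2-fold changes between day 7 and control, and 96% and 50% between day 14 and day 7. The test of differences between classes, on 10071 genes, recovered 57% and 2%, and 75% and 18%. In these simulations the changed genes were drawn only from those above a minimum expected UMI count. All genes were given the same spread. Recovery of genes with few UMIs or a larger spread was therefore not measured.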

Additional observations from a re-analysis of the deposited data

Results flagged for a closer look

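The change of 35 named gene results differed between principal and thick ascending limb cells by a test of the difference itself, an interaction term in edgeR with Benjamini-Hochberg adjustment; values are the log2 change in principal cells minus that in thick limb cells. From control to day 7 the difference was positive for Ly6c1 (9.02), Pla2g7 (7.17), Rsad2 (4.54), Apoe (4.36) and Pigr (3.80). Ly6c1 and Pla2g7 had no UMI in control principal cells, so the sizes of their differences depend on the prior count. Pla2g7 lost its call without cells of high doublet scores. At day 7 thick limb cells held higher means than principal cells for Ly6c1 (379 against 221 CPM), Pla2g7 (81.1 against 20.1) and Pigr (435 against 349). Their means of Rsad2 and Apoe were lower. Apoe was at a mean of 2163 unscaled CPM in intercalated cells, and the part of free RNA in these differences was not tested. The difference was negative for Rasd1 (-4.39), Crip1 (-4.02), Mki67 (-3.74), Ptges (-3.65), Anxa1 (-3.55), Cldn4 (-3.49), Krt18 (-2.11), Clu (-1.85), Fos (-1.77), Jun (-1.10), Hoxb7 (-0.98), Tfcp2l1 (-0.92) and Krt8 (-0.91).

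From day 7 to day 14 the difference was positive for Rasd1 (3.99), Ptges (3.62), Phlda1 (3.49), Cldn4 (3.26), Crip1 (3.25), Krt18 (2.85), Calb1 (1.32), Npnt (1.26), Tfcp2l1 (0.91), Fos (0.89) and Clu (0.65). It was negative for Ociad2 (-4.19), Rsad2 (-3.59), Mfge8 (-3.18), Apoe (-3.10), Pigr (-2.89) and Atp1b1 (-0.65). Leaving out 1 library ended the call of Rsad2, Krt8, Hoxb7 or Tfcp2l1 from control to day 7, and of Calb1, Npnt, Clu, Atp1b1, Cldn4, Fos, Phlda1 or Tfcp2l1 from day 7 to day 14. For Calb1 the difference took the other sign without day 7 replicate 2. Both comparisons share the day 7 libraries.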

How the results depend on the processing

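Of 491 named gene results, 379 were called, and over all settings 8324 values kept their direction and side of the threshold, 654 were no longer called, 100 became called and 29 reversed. DESeq2 called 350 genes between day 7 and control, 706 between days 11 and 7, 939 between days 14 and 7, 354 between days 14 and 11 and 57 between day 14 and control. The higher share of these calls was 70.1%, 63.6% and 31.6% in the comparisons of days 11 and 7, 14 and 7, and 14 and 11, against 57.8%, 53.6% and 42.9% by edgeR. Between day 7 and control, 1738 genes were called with at most 1 UMI of the excluded genes, 609 without cells over 2% proximal UMIs, 481 with a sum of at least 6 UMIs and 186 in cells without a Calb1 UMI, where 966 were called between days 11 and 7. Between day 14 and control the count was 135 without proximal-rich cells, 606 without Calb1 cells, 459 with no filter on low counts, 1187 when only the groups compared were fitted, 66 with a sum of at least 6 and 182 without the highest doublet scores. A sum of at least 6 gave 485 between days 14 and 11, and at most 25% mitochondrial UMIs gave 210 differences between classes from day 7 to day 14. Hsd11b2 from day 7 to day 14 gave 0.60 with DESeq2's size factors and was not called.

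The settings on excluded genes, Calb1, day 11 libraries, library totals and the tubular denominator were chosen after seeing the data. In cells without a Calb1 UMI the direction reversed from day 7 to day 14 for Scnn1a (-0.080), Scnn1g (-0.47), Sgk1 (-0.25), Tfcp2l1 (-0.12), Wnk1 (-0.19), Kcne1 (-0.27), Emx1 (-1.15), S100g (-0.85), Klk1 (-1.07), Klk1b3 (-1.55) and Klk1b21 (-1.54). It reversed from control to day 7 for S100g (0.49), Klk1b3 (2.21), Mki67 (7.61) and Wnk1 (1.47), and from day 7 to day 11 for Klk1b3 (-1.15), Klk1b27 (-0.72), S100g (-1.26) and Klk1 (-1.89). It also reversed for Spp1 (-2.15) and Hoxd10 (-0.32) from day 11 to day 14, and for Mki67 (4.17) and Cenpf (5.34) between control and day 14, where Top2a went to 0.00. These cells are fewer, and the cause was not tested. At most 25% mitochondrial UMIs reversed Klk1b3 (0.35) and Wnk1 (0.16) from control to day 7 and the difference between classes for Spp1 (1.88). Without day 7 replicate 2 the difference for Calb1 reversed, so that with 1 library left out it ranged from -1.02 to 3.06 from control to day 7 and from -2.10 to 1.89 from day 7 to day 14. Library totals alone moved the median log2 change of all genes from 0.04 to 0.47 between control and day 7, and from -0.06 to -0.34 and -0.47 between day 7 and days 11 and 14.

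The share of principal cells in control was 3.38% after thinning, 3.93% with at most 1 excluded UMI, 0.831% without Calb1 cells and 16.1% of tubular classes. At day 1 these were 7.52%, 8.80%, 3.92% and 47.3%, with 5.13% and 8.02% at a sum of at least 6 and 3, and 4.32% with Aqp2 not used. At day 2 they were 7.49%, 8.83%, 3.23% and 60.2%, with 5.36% and 8.03% by sum, 5.46% with Aqp2 not used and 5.63% without proximal-rich cells. At day 4 they were 7.14% with 1 excluded UMI, 2.66% without Calb1 cells and 52.2% of tubular classes, with 4.55% and 6.53% by sum and 4.46% with Aqp2 not used. At day 7 they were 7.80%, 8.93%, 4.16% and 53.4%, with 6.14% and 7.58% by sum and 6.02% with Aqp2 not used. At day 11, 1.58% were without Calb1 and 26.7% of tubular classes; at day 14, 5.42% with 1 excluded UMI, 0.941% without Calb1 and 36.1% of tubular classes.

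With 1 library left out, calls ranged from 878 to 960 between day 7 and control, 905 to 1790 between days 11 and 7, 1441 to 2313 between days 14 and 7, 301 to 1089 between days 14 and 11, and 147 to 674 between day 14 and control. Differences between classes ranged from 248 to 473 and from 119 to 362. Aqp2 from day 11 to day 14 ranged from -1.11 to -0.89, Fxyd4 from day 7 to day 14 from 0.50 to 1.15, Hsd11b2 from 0.36 to 0.70 and from 0.46 to 0.79 (days 7 to 11 and 7 to 14), and Scnn1b from 0.35 to 1.15 (days 7 to 11) and from -0.98 to -0.20 (control to day 7). With a replicate block the counts were 1742 between days 11 and 7, 2154 between days 14 and 7 and 809 between days 14 and 11. Same-numbered libraries deviated with correlations of 0.179, 0.121 and -0.06 over 2668 genes, so the numbers were not taken to pair them. No paired analysis was possible for comparisons with control because the control is 1 library. Depth of 163 control cells limits calls of genes with few UMIs.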

Other observations

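The split between libraries in BC018473 was found in all other kept cells too, and the transcript AA465934 split the libraries the same way, at 103 scaled CPM in control principal cells, 129 and 63.4 at day 11 and 1.56 to 4.66 in the libraries where it was low. The splicing factor gene Cwc22 showed the reverse, at 18.1 CPM in control and 2.44 and 13.4 at day 11 against 132 to 449 elsewhere.

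Cells of the rule with a Calb1 UMI carried far more S100g than those without, at 21823 against 1542 unscaled CPM in control, 4002 against 1731 and 6376 against 3653 at day 7, 24686 against 829 and 15986 against 1173 at day 11, and 32363 against 1556 and 24508 against 853 at day 14. The ratio between the cells was thus smallest in the day 7 libraries among these.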
